A study of Mus musculus with 2 samples.

Results

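The colony-stimulating factors and their receptors were examined as 9 genes out of 22886 in the deposited tables. They were 4 ligands (Csf1, Il34, Csf2 and Csf3) and 5 receptor chains (Csf1r, Csf2ra, Csf2rb, Csf2rb2 and Csf3r), taken by gene symbol. No measured value entered that rule, but the members were chosen with earlier results of these data known. All 9 were found with 1 row each. The labels describe wild type C57BL/6 mice that carried subcutaneous tumors of LLC, the Lewis lung carcinoma line. The mice received vehicle or clodronate, a bisphosphonate that is given in liposomes to deplete phagocytes, and tumor cells termed aerobic were sorted by FACS. There was 1 library per condition. The number of mice behind a library, their age and sex, the dose, the time of injection and the sorting gate are not given in the sources used here. The labels also hold a growth protocol for EML, a line of blood progenitors, at odds with the tumor named elsewhere in them.

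Colony-stimulating factors are secreted proteins that keep myeloid cells alive and drive their division and maturation. CSF1 and IL-34 bind the same receptor tyrosine kinase, CSF1R, on which most tissue macrophages depend. GM-CSF, the product of Csf2, binds a specific alpha chain, the product of Csf2ra, which signals through the common beta chain encoded by Csf2rb. Mice carry an additional beta chain gene, Csf2rb2, whose product pairs with the IL-3 receptor alpha chain. G-CSF, the product of Csf3, acts through the homodimeric receptor CSF3R, the main growth receptor of neutrophils. In solid tumors these factors come from tumor cells, fibroblasts, endothelium and lymphocytes, whereas the receptors are carried chiefly by myeloid cells.

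With 1 library per condition, no difference given here has a replicate check, and a difference between conditions cannot be told apart from one between single mice, sorts or preparations. A smaller number of cells of a type and less RNA per cell cannot be told apart either. Macrophage markers were high in both libraries, with a median over 11 genes of 1183 RPKM (reads scaled to transcript length and library depth) in vehicle and 1045 RPKM in clodronate. Of the 11 genes 7 were higher and 4 lower in clodronate, with a median log2 ratio of 0.087, so that the order of the level medians is not the direction of most genes. Among 6 epithelial markers Epcam, Krt19 and Cldn4 had a listed value of 0 in each library, while the others reached at most 6.44 RPKM. The label of tumor cells was therefore not matched by these epithelial genes, and no list of LLC genes was examined. Low values fell on steps of whole reads, from which a depth of about 13700000 reads was estimated for vehicle and of 11200000 reads for clodronate.

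The receptors were abundant and the ligands scarce in both libraries. The 5 receptors lay between 19.3 and 465 RPKM and the 4 ligands between 0 and 6.45 RPKM, so that the lowest receptor value exceeded the highest ligand value. In the vehicle library the order of levels was Csf1r, Csf2ra, Csf2rb, Csf3r, Csf2rb2, Csf1, Csf3, Il34 and Csf2. In the clodronate library Csf3r and Csf2rb2 changed places, and Il34 joined Csf2 among the genes listed at 0. Without replicates, neighbours in this order cannot be said to differ beyond their spread.

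**Figure D1:**
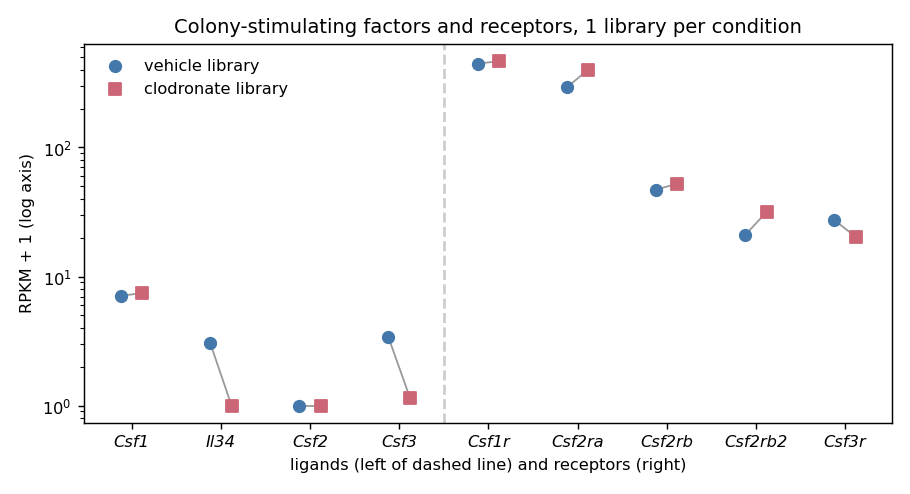
RPKM + 1 on a log axis for each of the 9 genes, with a circle for the vehicle library and a square for the clodronate library, 1 library each, and no error bars because there are no replicates. The receptors sit between 19.3 and 465 RPKM in both libraries, above every ligand, and a point at 1 on the axis is a gene listed at 0.

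Of the 9 genes 8 passed the filter of a mean of at least 1 RPKM, all but Csf2. None of the 8 was at least 3-fold higher in the clodronate library, against 2.86% of the 10982 genes kept. Il34 alone was at least 3-fold lower with 1 RPKM added to each value, against 2.32% of the genes kept. Csf3 had a vehicle value 15.5 times that of clodronate, but came to 2.93-fold with 1 RPKM added and was not called. The call of Il34 was fixed by the filter and carries no information of its own. A gene listed at 0 in clodronate passes only with at least 2 RPKM in vehicle. It is then at least 3-fold lower once 1 RPKM is added. All 71 genes kept that were listed at 0 in clodronate were called in this way. The median log2 ratio of clodronate over vehicle was 0.067 over these 8 genes, 0.16 over the 5 receptors and 0.019 over all genes kept. For comparison, the median size of the log2 ratio, without its sign, was 0.39 over all genes kept.

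**Figure D2:**
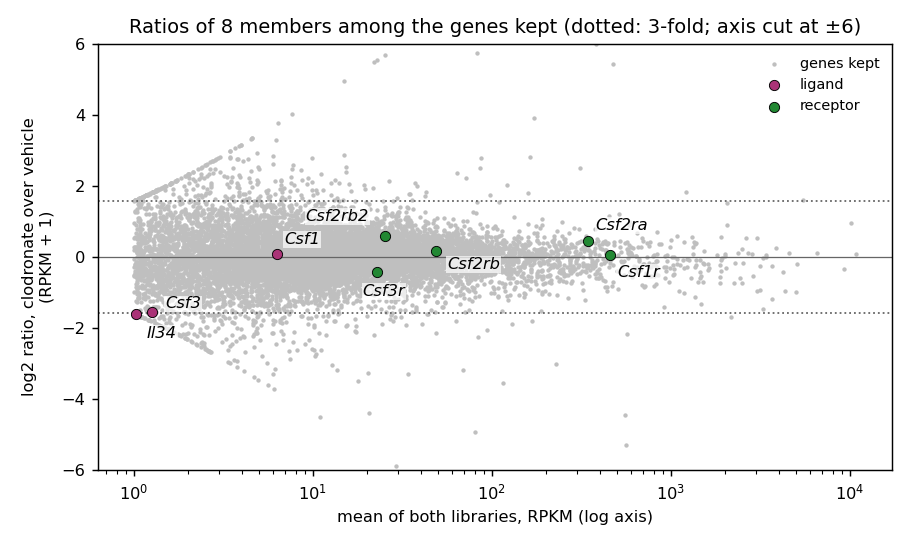
Log2 ratio of clodronate over vehicle (RPKM + 1) against the mean of both libraries (RPKM, log axis), with 1 grey point per gene kept, ligands in purple and receptors in green, and dotted lines at 3-fold. The 5 receptors lie inside the dotted lines, and Il34 at a log2 ratio of -1.61 and Csf3 at -1.55 lie at the lower line, at low levels where the grey points spread widely.

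Csf1r, the gene of the receptor for CSF1 and IL-34, was the most abundant of the 9 genes. It lies at chr18:61265225-61290793 (mm9). Its level was 446 RPKM in the vehicle library and 465 RPKM in the clodronate library, or about 22414 and 19097 reads. These values placed it at rank 207 and rank 209 among the genes kept. Both the level and the rank were thus nearly alike in the libraries. The log2 ratio was 0.062, and 91.1% of the genes kept had a ratio of larger size. Its direction is not determined, since it lay at -0.000245 with scaling to the upper quartile. At these read numbers the relative counting error was 0.668% and 0.724%, and it covers nothing but the sampling of reads. The genes with the most similar levels over the 2 libraries were Pld4 (453 and 465 RPKM), Capg (435 and 479 RPKM) and Ctsa (444 and 443 RPKM).

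The ligands of this receptor were far less abundant. Csf1, the gene of macrophage colony-stimulating factor, lies at chr3:107543965-107563387 (mm9) and is listed with 3 RefSeq transcripts. It had 6.08 RPKM in the vehicle library and 6.45 RPKM in the clodronate library, with a log2 ratio of 0.073. Csf1 was therefore present in both sorts at a low level, below 66.8% and 65.9% of the genes kept. The level of Csf1r was 73.3 times that of Csf1 in vehicle and 72.1 times in clodronate. The genes nearest to Csf1 in level were Cdh1 (6.14 and 6.44 RPKM), Pigm (6.02 and 6.43 RPKM) and Ndor1 (6.02 and 6.48 RPKM).

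Il34, the gene of the alternative CSF1R ligand, lies at chr8:113265728-113329803 (mm9). It had 2.06 RPKM in the vehicle library, an estimated 42 to 45 reads depending on the transcript, and was listed at 0 in the clodronate library. If that 0 stands for no read, the 3 reads that a count of 0 allows would amount to 0.169 RPKM there. The 2 libraries thus differed in whether Il34 was listed with a value at all. Its log2 ratio of -1.61 is set by the 1 RPKM added to each value and does not measure the size of the difference. Such a listing was uncommon but not rare: 71 of 9755 genes with at least 2 RPKM in vehicle (0.728%) were listed at 0 in clodronate, and 137 of 9814 genes in the other direction. The genes nearest to Il34, namely Gzmg, Gm10081 and Ldhal6b, had 2.05 RPKM each in vehicle and were listed at 0 in clodronate as well.

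Most fibroblast markers were lower in the clodronate library, as Il34 was, but none by 3-fold once 1 RPKM was added to each value. Over all genes kept 2.32% were lower by 3-fold. Of 8 fibroblast markers 7 passed the filter and 6 of these were lower, against 48.4% of all genes kept, and the summed level of the 8 was 159 RPKM in vehicle and 75.5 RPKM in clodronate. Among them Dcn, which encodes the matrix proteoglycan decorin, had 77.3 and 28.4 RPKM, the ratio of largest size with 1 RPKM added. By the listed values alone Postn (2.21 and 0.364 RPKM) and Fap (1.34 and 0.0713 RPKM) differed more, at low levels. Col3a1 had 62.1 and 34.4 RPKM. Col1a1, a main collagen gene of fibroblasts, went the other way with 2.32 and 5.40 RPKM. No fibroblast marker was listed at 0 in both libraries. The part of these cells in the levels of Il34 and Csf3 was not tested. Of the other proteins known to bind IL-34, Sdc1, the gene of the proteoglycan syndecan-1, had 7.05 and 5.23 RPKM. Ptprz1, a receptor phosphatase of the nervous system, was listed at 0 in vehicle and had 0.0226 RPKM in clodronate.

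Csf2ra, the gene of the GM-CSF receptor alpha chain, lies at chr19:61300304-61304321 (mm9) and followed Csf1r in level. It had 291 RPKM in the vehicle library and 401 RPKM in the clodronate library, about 6552 and 7370 reads. Its rank among the genes kept was 315 in vehicle and 236 in clodronate. The level was thus 1.38 times as high in clodronate, a log2 ratio of 0.46, which 42.8% of the genes kept exceeded in size. Its direction was the same under every scaling run, with log2 ratios from 0.40 to 0.47. Csf1r stood 1.53 times above Csf2ra in vehicle and 1.16 times above it in clodronate. The nearest genes in level were Arhgdia (294 and 391 RPKM), Tpi1 (307 and 381 RPKM) and Ndufa3 (266 and 405 RPKM).

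The promoter of Csf2ra is shown because this gene had the highest level among the members whose promoter was at hand. RefSeq promoters, from 250 bases before to 50 bases after the annotated transcript start, were found for 5 of the 9 members on GRCm38.p6. Capitals mark GAGGAA or its reverse complement TTCCTC, the core that the myeloid factor PU.1 is known to recognise. This motif was picked after the values were seen. It occurred on either strand in 28.3% of 32851 promoters, so that a match is common. In the promoter of Csf2ra, at chr19:61228369-61228668 on the minus strand, 2 adjoining matches began 14 and 8 bases before the start.

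Csf2ra promoter: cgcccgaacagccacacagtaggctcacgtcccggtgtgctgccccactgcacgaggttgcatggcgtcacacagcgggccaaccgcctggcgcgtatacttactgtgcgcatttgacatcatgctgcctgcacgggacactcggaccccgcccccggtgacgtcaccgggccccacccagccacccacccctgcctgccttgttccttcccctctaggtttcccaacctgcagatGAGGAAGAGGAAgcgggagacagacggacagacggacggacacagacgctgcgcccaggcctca

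Csf2 itself, the gene of GM-CSF, at chr11:54060771-54063401 (mm9), was listed at 0 in both libraries. If that stands for no read, 3 reads would amount to 0.37 RPKM in vehicle and 0.454 RPKM in clodronate. A listed 0 need not stand for no expression. Among all genes, 37 with at least 100 RPKM in one library were listed at 0 in the other, all of them with symbols of small RNA genes, and S100a9 was listed at 0 in both libraries while S100a8, the gene of its partner protein, was not. The alpha chain was thus listed among the abundant genes and the ligand at 0, without a measure of how little Csf2 RNA was present. Among 8 markers of T and NK cells, known sources of GM-CSF, Cd3e, Cd3g and Ncr1 had a listed value of 0 in each library, and the list summed to 11.1 RPKM in vehicle and 9.76 RPKM in clodronate. Of that sum Cd4 made up 10.3 and 7.72 RPKM.

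The beta chains were lower than the alpha chain. Csf2rb, the common beta chain gene, at chr15:78156419-78181431 (mm9), had 46.1 RPKM in the vehicle library and 51.6 RPKM in the clodronate library. Csf2rb2, the beta chain gene of the IL-3 receptor, at chr15:78112939-78136033 (mm9), had 19.9 and 30.7 RPKM. Both were higher in clodronate, with log2 ratios of 0.16 and 0.60. Csf2rb2 showed the largest log2 ratio above 0 among the 9 genes, and 31.9% of the genes kept had one of larger size. Csf2ra was 6.32 times as high as Csf2rb in vehicle and 7.78 times in clodronate. The nearest genes to Csf2rb were Ppp6c, Ifnar1 and Rabgef1, all between 46.2 and 50.7 RPKM, and those to Csf2rb2 were Cherp, Wwp2 and Scaf4, between 19.5 and 31.2 RPKM.

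The beta chain genes are close paralogs, and part of their sequence cannot be assigned to either. They lie next to each other on chromosome 15, 20386 bases apart in the coordinates of the files. Their coding sequences, on GRCm38, were identical at 2503 of 2628 aligned bases (95.2%) and differed at 125, with a longest identical run of 242 bases. Of all stretches of 50 bases in the Csf2rb transcript 18.9% also occurred in that of Csf2rb2, and of stretches of 100 bases 7.16%, so that 81.1% and 92.8% told the genes apart. The read length and the handling of reads that match both genes are not given in the sources used here, so both levels, and their sum, are uncertain to an extent that was not tested. The sum was 66.0 RPKM in vehicle and 82.2 RPKM in clodronate, with a log2 ratio of 0.31. Csf2rb2 made up 30.2% of the sum in vehicle and 37.3% in clodronate.

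The stretches below are the 120 coding bases within 1 exon at which the paralogs differ most. They lie in exon 4 of each transcript, at chr15:78338867-78338986 on the plus strand for Csf2rb and at chr15:78294345-78294464 on the minus strand for Csf2rb2, both on GRCm38. Capitals mark the 16 bases that differ, and reads across them can tell the genes apart.

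Csf2rb: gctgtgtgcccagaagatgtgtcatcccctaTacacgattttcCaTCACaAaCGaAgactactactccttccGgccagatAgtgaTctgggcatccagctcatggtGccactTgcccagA

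Csf2rb2: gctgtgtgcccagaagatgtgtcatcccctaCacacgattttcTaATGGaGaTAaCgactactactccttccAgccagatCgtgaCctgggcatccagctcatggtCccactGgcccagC

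**Figure D3:**
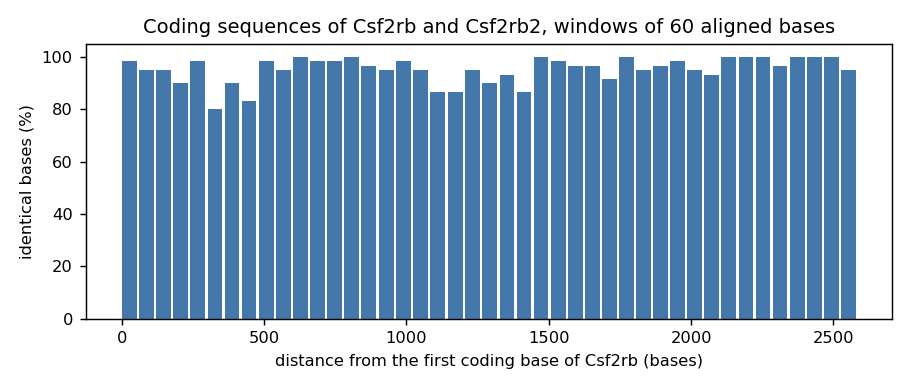
Share of identical bases (%) between the coding sequences of Csf2rb and Csf2rb2 in 43 windows of 60 aligned bases, against the distance from the first coding base of Csf2rb in bases. Identity runs from 80% to 100% with a median of 96.7%, and 10 windows are identical throughout.

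The promoter of Csf2rb2, at chr15:78305672-78305971 on the minus strand of GRCm38.p6, held 2 matches to the same motif, both as TTCCTC. They began 167 bases before and 29 bases after the transcript start. It is shown beside that of Csf2ra as the beta chain gene of this receptor group with a promoter entry.

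Csf2rb2 promoter: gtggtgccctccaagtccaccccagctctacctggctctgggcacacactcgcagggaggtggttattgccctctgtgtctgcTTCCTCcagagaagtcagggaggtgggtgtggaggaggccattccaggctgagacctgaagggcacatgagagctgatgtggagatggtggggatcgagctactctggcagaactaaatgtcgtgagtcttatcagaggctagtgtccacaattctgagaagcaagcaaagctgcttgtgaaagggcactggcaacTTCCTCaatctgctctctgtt

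The other ligands and alpha chains that use the common beta chain were low. Il3 and Il5, the genes of the lymphocyte cytokines IL-3 and IL-5, were listed at 0 in both libraries. Il3ra, the IL-3 receptor alpha chain gene, had 6.95 RPKM in vehicle and 12.3 RPKM in clodronate, with a log2 ratio of 0.74. Il5ra, the alpha chain gene of the IL-5 receptor on eosinophils, had 2.32 and 1.33 RPKM. The GM-CSF alpha chain transcript was thus the predominant one of this receptor group, at 41.9 times the level of Il3ra in vehicle and 32.6 times in clodronate.

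Csf3r, the G-CSF receptor gene, at chr4:125701902-125722219 (mm9), was the only receptor with a lower value in the clodronate library. It had 26.4 RPKM in vehicle and 19.3 RPKM in clodronate, about 1186 and 708 reads, and a log2 ratio of -0.43. The vehicle level was thus 1.37 times that of clodronate, and 45.6% of the genes kept had a ratio of larger size. The nearest genes in level were Ric8 (26.4 and 19.5 RPKM), Rnf167 (26.7 and 19.4 RPKM) and Rfk (26.8 and 19.5 RPKM). Of 10 neutrophil markers found, Elane, Mpo, S100a9, Camp, Ltf, Ngp and Retnlg had a listed value of 0 in each library. The list summed to 19.7 RPKM in vehicle and 26.7 RPKM in clodronate. The 3 markers that passed the filter had a median log2 ratio of -0.46. This median depended on the filter: it was 0.815 with a minimum mean of 5 RPKM and 0 with all genes kept. Cxcr2, a neutrophil chemokine receptor gene, had 4.06 and 2.69 RPKM, and Mmp8, the gene of neutrophil collagenase, had 3.0 and 0.909 RPKM. S100a8 went the other way with 12.7 and 23.1 RPKM, and through it the sum was higher in clodronate. Csf3r was thus measured at more than 19 RPKM in libraries in which 7 of these 10 markers were listed at 0 and 3 were not. A listed 0 need not stand for no expression, as said above with S100a9, and the part of neutrophils in the level of Csf3r was not tested.

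Its promoter, at chr4:126024409-126024708 on the plus strand of GRCm38.p6, held 1 match to the motif, which began 86 bases before the start. The promoters of Csf1 and Csf2 held none in the same window.

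Csf3r promoter: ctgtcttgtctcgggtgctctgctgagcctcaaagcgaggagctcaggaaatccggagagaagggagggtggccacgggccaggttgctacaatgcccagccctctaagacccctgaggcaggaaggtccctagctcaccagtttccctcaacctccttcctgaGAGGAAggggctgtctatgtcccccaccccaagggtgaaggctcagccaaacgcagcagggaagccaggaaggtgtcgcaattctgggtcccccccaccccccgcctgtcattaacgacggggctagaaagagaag

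Csf3, the G-CSF gene, at chr11:98562626-98564943 (mm9), had 2.38 RPKM in the vehicle library and 0.153 RPKM in the clodronate library. The vehicle value was 15.5 times that of clodronate. At 2761 loci each library had a value above 0 and below 3 RPKM. Of their ratios of vehicle to clodronate, 0.816 was seen most often, at 81 loci, and it was taken as the ratio that equal read numbers give at unequal depth. Divided by it, the ratio for Csf3 came to 19.0 and so to a whole number within rounding, as 19 reads in vehicle for each read in clodronate. With the length of its transcript the estimate was about 39 reads in vehicle and 2 in clodronate. The clodronate value thus rested on very few reads, with a relative counting error of 70.7% at 2 reads. On the log2 scale with 1 RPKM added the ratio was -1.55, which corresponds to 2.93-fold and so fell short of the threshold of 3-fold. Of the genes kept 5.47% had a ratio of larger size. Csf3 passed the filter only through its vehicle value. With so low a clodronate value, a ratio far below 0 was largely set by the filter, so its place among the genes kept carries little information. With 0.1 RPKM added it was -3.29. The nearest genes in level, Gm9962 (2.27 and 0.146 RPKM), B230319C09Rik (2.30 and 0.12 RPKM) and Ccdc125 (2.47 and 0.194 RPKM), were likewise near the limit of detection in clodronate.

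The genes that carry the signals of these receptors inside the cell did not differ less between the libraries than the receptors did. The log2 ratios ran from -0.43 to 0.60 for the 5 receptors and from -0.71 to 0.67 for 8 JAK and STAT genes. Kinases and transcription factors of these families act below CSF2RB, CSF3R and other cytokine receptors. Of the 8 genes 6 were higher and 2 lower in clodronate, none by 3-fold, with a median log2 ratio of 0.35. Of all 10982 genes kept 5664 were higher and 5318 lower, with a median of 0.019. By 3-fold 2.86% were higher and 2.32% lower, so that none among so few genes is not a result about them. Stat3 had 69.6 RPKM in vehicle and 98.5 RPKM in clodronate. Stat5a and Stat5b, the main transcription factors of GM-CSF signaling, had 5.12 and 7.41 RPKM and 7.99 and 11.4 RPKM. Jak2, the kinase bound to the beta chain, went the other way, with 19.9 and 11.8 RPKM. The genes of this axis therefore did not share a direction.

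Among 9 feedback and negative regulators, 6 were higher and 3 lower in clodronate, none by 3-fold once 1 RPKM was added to each value. Over all genes kept 48.4% were lower, and 2.86% were higher and 2.32% lower by 3-fold. Socs1, an inhibitor of JAK kinases, had the largest ratio, with 0.714 and 3.15 RPKM and a log2 ratio of 1.28 at a low level. Its listed values alone differ by more than 3-fold, and the 1 RPKM added brings the ratio below that. Socs3, the inhibitor bound to CSF3R and related receptors, had 58.5 and 77.3 RPKM. Cish, a STAT5 target gene, had 6.71 and 3.90 RPKM, and Socs2, likewise a STAT5 target, had 6.16 and 4.63 RPKM. Cbl, the ubiquitin ligase that sends CSF1R to degradation, had 53.5 and 63.0 RPKM. The phosphatase genes Ptpn6 and Inpp5d, both brakes on myeloid signaling, had 99.6 and 116 RPKM and 99.6 and 114 RPKM.

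Of 16 CSF1R signal transducers, 9 were higher and 7 lower in clodronate, none by 3-fold, with a median log2 ratio of 0.083. For all genes kept 48.4% were lower, and the 3-fold shares were 2.86% higher and 2.32% lower. Tyrobp, an adaptor used by CSF1R and many myeloid receptors, was the most abundant, with 2174 RPKM in vehicle and 1644 RPKM in clodronate. Pik3cd, a catalytic subunit of PI3 kinase, had 18.3 and 39.7 RPKM and the largest ratio, 1.07 on the log2 scale. Grb2, which links the receptor to Ras, had 90.1 and 88.8 RPKM, and Syk had 75.9 and 82.9 RPKM. These genes were thus spread around a ratio near that of all genes kept.

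The transcription factors known to drive the receptor genes were expressed in both libraries. Spi1, the gene of PU.1, had 208 RPKM in vehicle and 333 RPKM in clodronate, a log2 ratio of 0.68. Cebpa had 46.5 and 40.3 RPKM, Cebpb 162 and 143 RPKM, Runx1 28.4 and 30.7 RPKM and Irf8 36.3 and 39.0 RPKM. None of the 5 differed by 3-fold, against 2.86% higher and 2.32% lower over all genes kept, and Spi1 had the ratio of largest size. Adam17, the protease that sheds CSF1 and CSF1R from the cell surface, had 42.0 and 53.5 RPKM, and its partner Rhbdf2 had 32.5 and 51.0 RPKM.

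**Figure D4:**
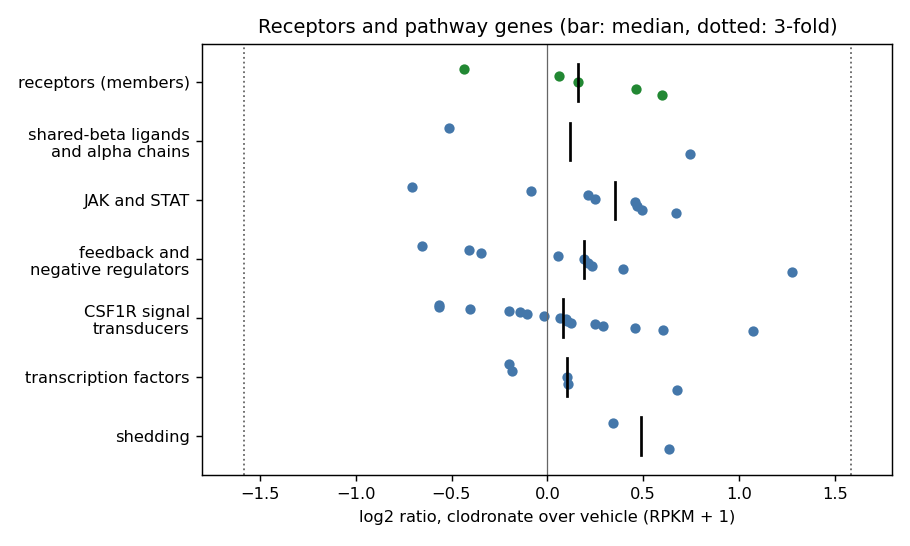
Log2 ratio of clodronate over vehicle (RPKM + 1) for the 5 receptors (green) and for the genes of 6 pathway lists that passed the filter (blue), with 1 point per gene, a bar at the median of each group and dotted lines at 3-fold. All points lie inside the dotted lines, with Socs1 farthest to the right at 1.28 and the median of the receptors at 0.16.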

How the data were processed

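RNA was measured by sequencing of polyA RNA in 2 libraries, 1 per condition. The authors deposited RPKM values for 23170 gene loci per library. The submitters' processing notes name the build mm9 and the tools CASAVA 1.8.2, TopHat2 2.0.9, Bowtie 0.12.9, Cufflinks 2.2.1 and Cuffdiff. The annotation release, the strand setting and the treatment of reads with several matches are not given in the sources used here.

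In 26 loci the symbol had turned into a number, and the RefSeq accession took its place. Rows of 1 symbol were summed, which gave 22886 genes. Each of the 9 members had 1 row. A gene was kept where its 2 values averaged 1 RPKM or more, which left 10982 genes. Ratios are log2 values of clodronate against vehicle after 1 RPKM was added to each, so that differences of low genes come out too small, and the fold threshold was 3. With 1 library per condition no test was run. The files hold no read totals. Depth was estimated from the steps of low values in genes with 1 RefSeq accession, with transcript lengths of GENCODE M21 less 210 bases, a number fitted to the data. The offset and what 1 read is worth were chosen so that values between 0.5 and 4.5 reads lay nearest to whole numbers. In each library 78% of the values used lay within 0.1 of a whole read, where an even spread without a fit would put 20%. The same values served for the fit, so that this share is no separate check of it. Estimates of reads are approximate, since lengths came from GRCm38 and mapping used mm9, and the counting error given with them covers no other source of error.

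The members and the 14 gene lists were chosen with earlier results of these data known. All members are named, as are genes of those lists and the 3 genes with the nearest levels to a member, by Euclidean distance over the 2 log2(RPKM + 1) values. Adgre1 is listed under the older symbol Emr1, and Ly6g was found under no symbol. Alternatives were 0.1 RPKM added in place of 1, keeping all genes, a minimum mean of 5 RPKM, centring on the median, upper quartile scaling, equal totals, the highest row of each symbol and 2-fold. Leaving out genes listed at 0 was added after seeing the data. The steps were tested on simulated data. The coding sequences were aligned globally, and promoters came from RefSeq on GRCm38.p6. Python 3.11.15, numpy 2.4.6, pandas 2.3.3, Biopython 1.88 and matplotlib 3.10.9 were used.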

Additional observations from a re-analysis of the deposited data

How the results depend on the processing

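No paired analysis was possible because vehicle and clodronate were sequenced once each. With a pseudocount of 0.1, 532 genes were at least 3-fold higher and 480 lower, and 2 members were lower, Csf3 joining Il34. With the minimum mean raised to 5 RPKM the counts were 127 and 101, and 0 members were lower, since Il34 and Csf3 no longer passed the filter. At 2-fold they were 763 and 744, with 2 members lower. The number of genes able to pass differs between these settings by their construction. Without genes listed at 0 in either library 177 genes were at least 3-fold higher and 0 members lower, since Il34 was left out. Under all settings 0 members were at least 3-fold higher. The median log2 ratio lay between 0.0094 and 0.12 for the members and between 0.098 and 0.17 for the receptors. Csf2ra, Csf2rb, Csf2rb2 and Csf3r kept the direction of their ratios in every setting run, whereas Csf1r crossed 0 with upper quartile scaling. What limits these values is the number of reads for Csf3 and Il34, and for every gene the single library per condition.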

Other observations

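CSF1R belongs to the type III receptor tyrosine kinases, and the other genes of that family were low in both libraries. Kit, the receptor of stem cell factor, had 1.36 RPKM in the vehicle library and 0.717 RPKM in the clodronate library, and Flt3, the receptor of dendritic cell precursors, was listed at 0 in vehicle and had 0.232 RPKM in clodronate. Pdgfra, a receptor of fibroblasts, had 1.42 and 1.02 RPKM, and Pdgfrb, found on pericytes, was listed at 0 in vehicle and had 0.290 RPKM in clodronate. The ligand genes of Kit and Flt3 were somewhat higher than the genes of their own receptors, with 2.01 and 0.915 RPKM for Kitl and 7.32 and 10.2 RPKM for Flt3l. Of these 6 genes 4 passed the filter and none differed by 3-fold, against 2.86% higher and 2.32% lower over all genes kept.

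Markers of endothelium, a known source of colony-stimulating factors, had a summed level of 3.34 RPKM in vehicle and 7.84 RPKM in clodronate over 6 genes. Tek and Emcn were listed at 0 in both libraries, and 2 of the 6 passed the filter, Cdh5, the gene of VE-cadherin, with 0.480 and 3.24 RPKM and Pecam1 with 1.24 and 3.33 RPKM. Below the filter, Kdr had 0.650 and 0.831 RPKM and Vwf 0.967 and 0.443 RPKM.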
